A study of Mus musculus with 2 samples.

Results

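Collagen chain genes encode the subunits of the collagen trimers, and every gene whose symbol reads Col, a number, a and a number was taken, without regard to its level. The 31053 genes counted in these libraries held 44 such genes. Of these, 29 had at least 20 UMIs over both libraries (a UMI is 1 distinct RNA molecule seen with 1 cell barcode) and are quantified here. The other 15 were too low to describe: Col2a1, Col4a6, Col6a4, Col6a6, Col7a1, Col8a2, Col9a1, Col9a2, Col9a3, Col10a1, Col11a1, Col19a1, Col22a1, Col26a1 and Col28a1. The chains just inside that limit were Col24a1 (23 UMIs), Col20a1 (26) and Col6a5 (27), and those just outside were Col4a6 (19) and Col9a3 (18).

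The libraries came from livers of C57BL/6 mice, in which hepatocytes and non-parenchymal cells were isolated separately and mixed. The pIVCL library was made 6 weeks after partial inferior vena cava ligation, begun at 8 to 10 weeks of age, an operation that narrows the vein carrying blood away from the liver and congests the organ. The Control library is titled as healthy. The growth protocol given for both samples describes the ligation, so the groups rest on the genotype label and the title, and neither the number of animals behind a library nor a sham operation is given in the sources used here. With 1 library per group there is no test and no replicate check: every difference below compares these libraries, not the conditions, and its 95% interval covers counting error only.

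Collagens are the main structural proteins of the extracellular matrix, and each is built from chains wound around one another. Fibrillar collagens such as types I, III and V form the cables of scar tissue, type IV forms the sheet of basement membranes, and other families sit on fibrils, in filaments or in the cell membrane. In the liver, stellate cells, the vitamin A-storing cells beside the sinusoids, and portal fibroblasts are the known sources of fibrillar collagen, while sinusoidal endothelium normally lacks a continuous basement membrane.

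The Control library held 3574 barcodes and 24637681 UMIs, of which 2721 cells were kept with a median of 5262 UMIs. The pIVCL library held 7042 barcodes and 38154000 UMIs, of which 5443 cells were kept with a median of 2005 UMIs. Because of that gap in depth, levels are in CPM, counts of a gene scaled to a common total for each cell class. Each transcript is counted once from its 3′ end, so CPM of different chains are compared as RNA molecules, without a length correction. Classes were named by 205 marker genes, none of them a collagen, and the clustering used no collagen gene. Of 24 clusters, 23 fell into 14 classes, and a shallow cluster of 310 Control and 167 pIVCL cells stayed unnamed. The libraries shared 13 barcodes, 9 of them among kept cells.

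The promoters of 5 chains are shown because their genes carry the differences described below: the head-to-head genes Col4a1 and Col4a2, which were higher together in endothelial cells, Col13a1, which was lower there, and Col1a2 and Col3a1, which were higher in stellate-like cells. All are pIVCL against Control in classes drawn by cluster. Col1a2 and Col3a1 were not higher in stellate-like cells with classes drawn cell by cell, as given below. Each window holds 250 bases before to 50 bases after the annotated start in RefSeq for GRCm38.p6, is printed 5′ to 3′ on the strand of the gene, and carries in capitals 3 motifs. These are CCAAT, read as ATTGG on the other strand, then GGGCGG, read there as CCGCCC, and last TATAAA, read there as TTTATA. No capital stretch belongs to 2 of these motifs.
Col4a1, chr8:11312777-11313076, minus strand: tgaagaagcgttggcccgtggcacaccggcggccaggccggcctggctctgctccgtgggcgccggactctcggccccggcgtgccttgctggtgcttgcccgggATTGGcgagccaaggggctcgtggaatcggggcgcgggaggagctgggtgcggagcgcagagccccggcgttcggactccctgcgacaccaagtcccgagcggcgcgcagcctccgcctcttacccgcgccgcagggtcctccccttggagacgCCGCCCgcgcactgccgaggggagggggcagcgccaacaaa
Col4a2, chr8:11312555-11312854, plus strand: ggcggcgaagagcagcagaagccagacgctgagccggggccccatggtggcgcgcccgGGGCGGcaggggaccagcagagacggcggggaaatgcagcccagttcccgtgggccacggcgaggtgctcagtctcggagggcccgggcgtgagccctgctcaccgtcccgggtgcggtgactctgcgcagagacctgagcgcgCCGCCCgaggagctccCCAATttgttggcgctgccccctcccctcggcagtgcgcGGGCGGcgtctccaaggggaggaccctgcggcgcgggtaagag
Col13a1, chr10:61979059-61979358, minus strand: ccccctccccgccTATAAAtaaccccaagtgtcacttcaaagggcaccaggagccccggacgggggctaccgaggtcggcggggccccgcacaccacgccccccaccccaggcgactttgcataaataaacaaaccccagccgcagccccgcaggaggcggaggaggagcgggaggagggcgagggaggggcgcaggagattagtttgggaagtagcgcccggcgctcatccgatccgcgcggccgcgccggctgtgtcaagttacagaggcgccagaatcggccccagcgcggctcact
Col1a2, chr6:4505368-4505667, plus strand: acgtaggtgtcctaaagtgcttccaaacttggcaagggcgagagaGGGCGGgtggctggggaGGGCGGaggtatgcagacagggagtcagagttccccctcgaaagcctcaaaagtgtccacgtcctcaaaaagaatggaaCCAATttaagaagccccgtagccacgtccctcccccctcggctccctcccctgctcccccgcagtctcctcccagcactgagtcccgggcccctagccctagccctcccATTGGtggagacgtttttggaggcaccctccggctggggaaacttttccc
Col3a1, chr1:45311288-45311587, plus strand: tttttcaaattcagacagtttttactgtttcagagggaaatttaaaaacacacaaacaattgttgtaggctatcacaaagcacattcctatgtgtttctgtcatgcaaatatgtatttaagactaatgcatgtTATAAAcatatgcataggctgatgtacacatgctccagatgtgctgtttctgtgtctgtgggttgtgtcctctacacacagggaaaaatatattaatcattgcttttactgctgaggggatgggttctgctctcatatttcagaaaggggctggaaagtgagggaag

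The windows of Col4a1 and Col4a2 overlap by 78 bases, since the genes lie head to head and their first bases overlap. The last 78 bases of either window are the reverse complement of the last 78 of the other, and the GGGCGG from base 8 of Col4a2 is the CCGCCC from base 10 of Col4a1, counted from the start as base 1. The Col1a2 window holds GGGCGG from bases -205 and -188, a CCAAT from base -109 and an ATTGG from base 1. The Col3a1 and Col13a1 windows hold a TATAAA, from bases -117 and -237, and neither of the other motifs. Of 44 chain genes, 35 had a window in the RefSeq table, with 38 promoters in all. CCAAT was in 13 of these 38, GGGCGG in 23 and TATAAA in 5, against 37.4%, 35.7% and 13.6% of all 32851 promoters of that length. A match is a description of the letters, not of a bound site.

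Hepatic stellate-like, LSEC-like (liver sinusoidal endothelial cell), hepatocyte-like and vascular endothelial-like cells held most collagen RNA. Over all kept cells, collagen RNA made up 1110.2 CPM (1096 to 1125) in Control against 624 (615 to 633) in pIVCL, a pIVCL over Control ratio of 0.562 (0.551 to 0.573). Within classes the order was different. Stellate-like cells (185 Control and 84 pIVCL cells) held 6918 CPM (6771 to 7067) in Control against 12611 (12299.5 to 12929) in pIVCL, a ratio of 1.82 (1.76 to 1.88). LSEC-like cells (747 Control and 427 pIVCL cells) held 1310.3 CPM (1280.3 to 1341) in Control against 1597 (1538 to 1658) in pIVCL, a ratio of 1.22 (1.17 to 1.27). Vascular endothelial-like cells (164 Control and 117 pIVCL cells) held 1058 CPM (1004 to 1113) in Control against 1499 (1410.1 to 1592) in pIVCL, a ratio of 1.42 (1.31 to 1.53). Hepatocyte-like cells (469 Control and 1846 pIVCL cells) held 488 CPM (472 to 504) in Control against 343 (335 to 352) in pIVCL, a ratio of 0.704 (0.675 to 0.734). The lower library total in pIVCL thus stood beside higher levels in 3 of these 4 classes, and with the pIVCL class levels weighted by the UMI shares of the Control classes the total was 1514 CPM, 1.36 times the Control value. That total includes the stellate-like level, whose ratio depended on which cells were counted. As described below, it was 1.3 in a stellate core and was not higher in pIVCL with classes drawn cell by cell. The weighted total was not recomputed for those choices. How many cells of each class entered a suspension and how much collagen RNA each cell held both move a library total, and the share of cells recovered from the tissue was not measured.

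Stellate-like cells held 38.4% of collagen UMIs in Control (37.7 to 39) and 36.1% in pIVCL (35.4 to 36.8). LSEC-like cells held 33.02% and 16.2%, and hepatocyte-like cells 16.01% and 35.6%. By family, the basement membrane chains held 35.3% of collagen UMIs in Control and 27.5% in pIVCL, the fibrillar chains 15.96% and 23.7%, and the multiplexins Col15a1 and Col18a1 16.4% and 35.5%. The fibril-associated chains, mostly Col14a1, held 17.7% and 9.28%, and the transmembrane chains, mostly Col13a1, held 10.2% and 0.731%.

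**Figure D1:**
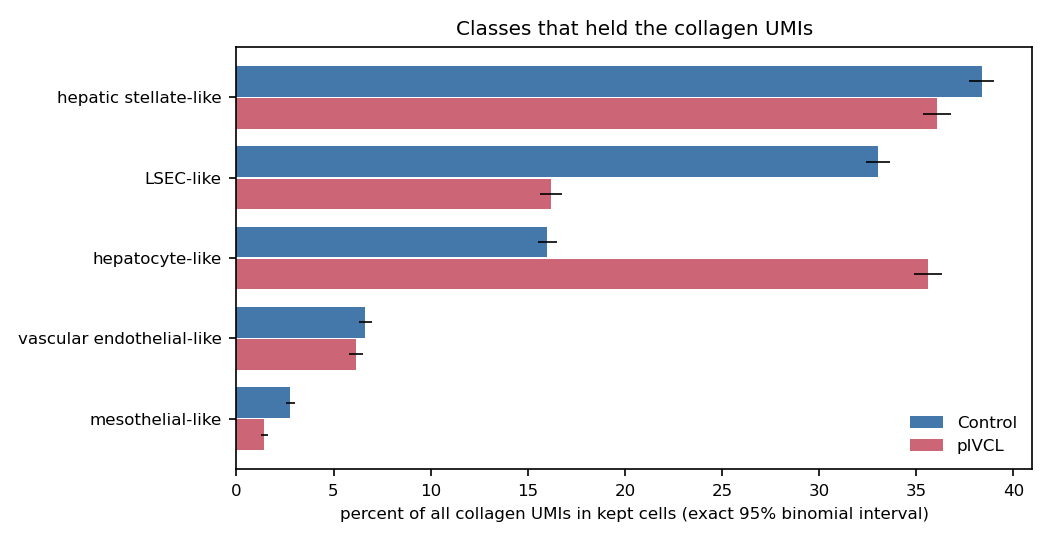
Share of all collagen UMIs held by each cell class in the Control and pIVCL libraries (percent, 1 library each), with exact binomial intervals for counting error. Stellate-like cells held 38.4% and 36.1%, LSEC-like cells 33.0% and 16.2%, and hepatocyte-like cells 16.01% and 35.6%.

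Most quantified chains belonged to 1 or 2 classes. Col14a1 (chr15:55307750-55520803 on GRCm38), which coats collagen fibrils, had 96% of its Control UMIs and 90.9% of its pIVCL UMIs in stellate-like cells. Col5a1, a type V chain that sets fibril assembly, had 93.4% and 89.9% there, and Col1a1 (chr11:94936224-94953042) had 70.5% and 96.3%. Col18a1 (chr10:77052178-77166548), whose product carries the endostatin fragment, had 93.5% and 94.4% of its UMIs in hepatocyte-like cells. Col13a1 (chr10:61838236-61979108), a membrane-spanning collagen, had 85.8% of its Control UMIs in LSEC-like cells. Col4a1 (chr8:11198423-11312826) and Col4a2 (chr8:11312805-11449287), partners in the common type IV trimer, were spread over endothelial and stellate-like cells.

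**Figure D2:**
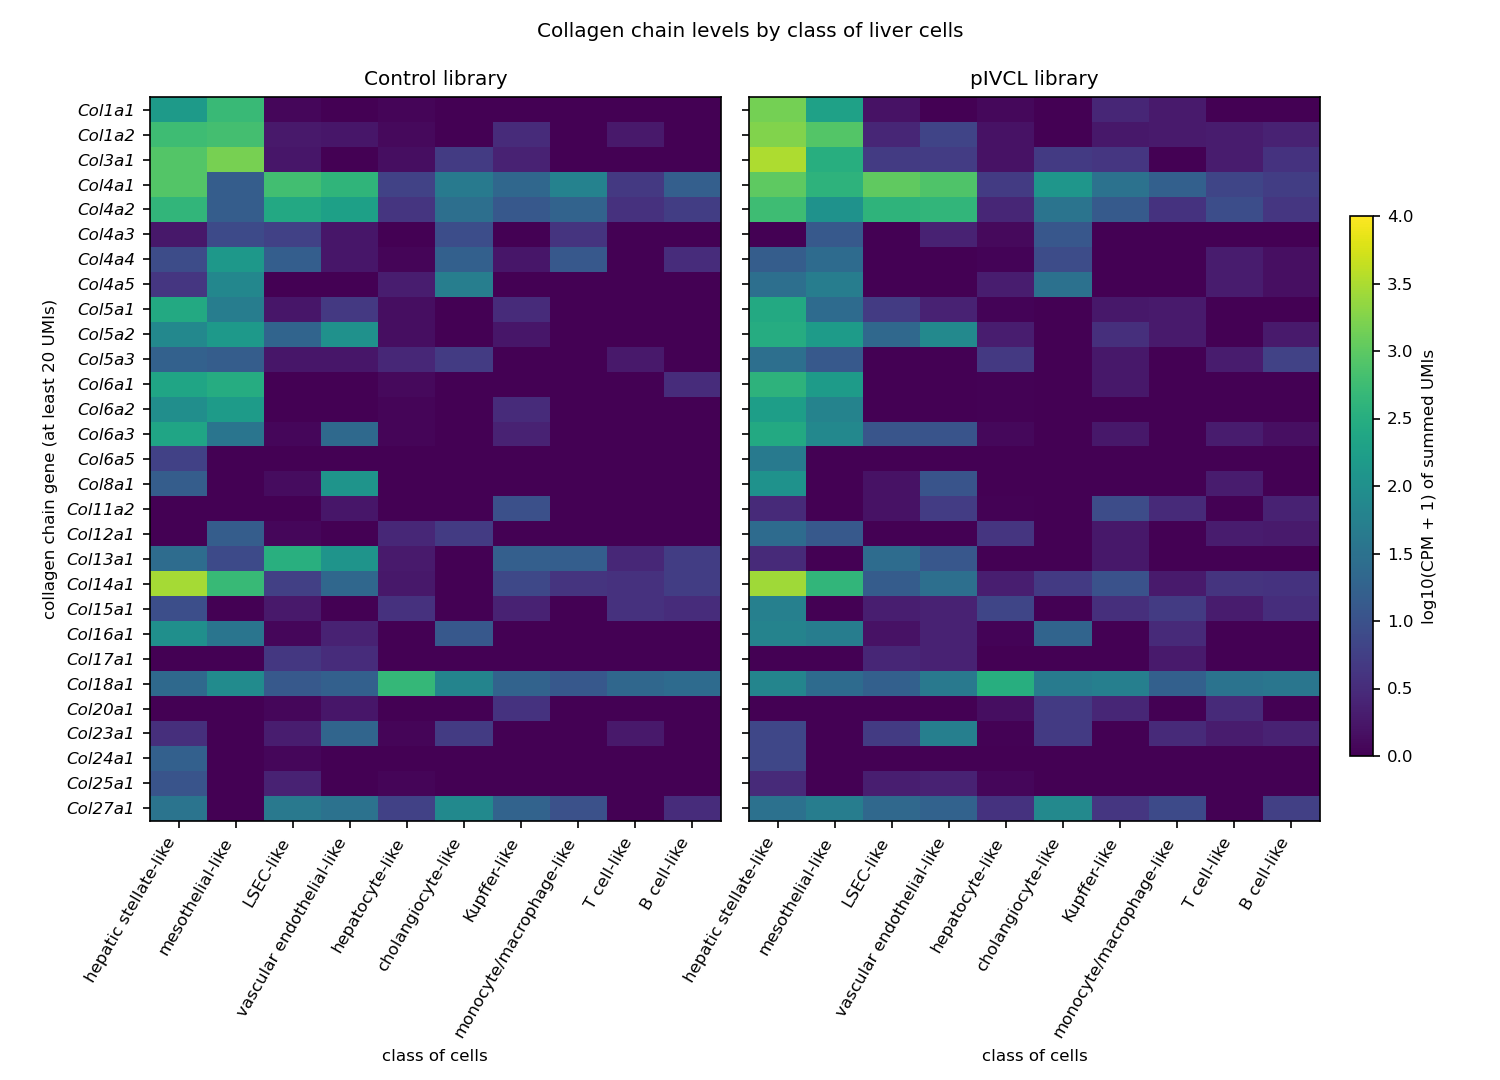
Level of each quantified chain (rows) in each cell class (columns) of the Control and pIVCL libraries, coloured by log10 of CPM plus 1. Col1a1, Col1a2 and Col3a1 peak in stellate-like and mesothelial-like cells, Col4a1 and Col4a2 in endothelial and stellate-like cells, and Col18a1 in hepatocyte-like cells.

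Stellate-like cells of the pIVCL library held more RNA of the fibrillar chains Col1a1, Col1a2, Col3a1 and Col5a2. Lrat, the enzyme that makes retinol esters for storage, Reln and Ecm1 were among the leading genes of the cluster. Of 20 chains with at least 20 UMIs in the class, 8 were higher in pIVCL by a log2 ratio of at least 1 (20 CPM added to both libraries) and 1 was lower by as much. Among all 8961 genes so tested, 2.11% were that much higher and 1.5% that much lower. The median log2 ratio was 0.57 over the chains and -0.02 over all genes, with 15 chains above 0 and 5 below. The calls depended on which cells were counted: of the 8 chains, Col1a1 (log2 ratio 2.15) and Col5a2 (1.42) stayed past 1 in the stellate core described below, and with classes drawn cell by cell Col1a1 (1.49) alone did. Col18a1, Col3a1, Col8a1 and Col1a2 were at 0.97, 0.84, 0.55 and 0.44 in the core, and Col6a5 and Col15a1 at 0.

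Col1a1, the major chain of type I collagen, was at 151 CPM (129.9 to 174) in Control against 1479 (1374 to 1591) in pIVCL in stellate-like cells, from 184 and 729 UMIs. The ratio of 9.81 (8.33 to 11.6) was the highest among the 20 chains measured in this class. Col1a2, the partner chain, was at 566 CPM (524 to 609.6) in Control against 1739 (1625 to 1859.7) in pIVCL, a ratio of 3.07 (2.78 to 3.403). Col3a1, which forms the type III homotrimer of reticular fibres, was at 846 CPM (795 to 899) in Control against 3211 (3054 to 3373) in pIVCL, a ratio of 3.79 (3.51 to 4.11). In LSEC-like cells Col1a1 had 1 UMI in each library and in vascular endothelial-like cells 0 in both, and 1 and 4 UMIs were seen in hepatocyte-like cells. Its pIVCL level was 0.573 CPM in LSEC-like cells.

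The type V chains differed from one another. Col5a2 was at 71.3 CPM (57.1 to 88) in Control against 298 (252 to 351) in pIVCL, a ratio of 4.18 (3.19 to 5.52). Col5a1 was at 269 CPM (241 to 299.7) in Control against 272 (228 to 322) in pIVCL, a ratio of 1.01 (0.821 to 1.24), so a difference beyond that interval is not seen at this depth. Col5a3 had 20 and 14 UMIs, with a ratio of 1.73 (0.810 to 3.61) that includes 1.

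Of the fibril-associated chains, Col14a1 was the most abundant chain of the class in Control. It was at 2929 CPM (2834 to 3027) in Control against 2695 (2552 to 2844) in pIVCL, a ratio of 0.920 (0.863 to 0.980), close to equal beside the type I chains. Col16a1, found near fibrils and basement membranes, was at 96.8 CPM in Control against 60.9 in pIVCL, a ratio of 0.629 (0.407 to 0.946). Col12a1 had 0 UMIs in Control and 12 in pIVCL stellate-like cells, under the minimum of 20. In pIVCL, Col3a1 therefore stood above Col14a1, while in Control Col14a1 stood above every other chain.

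Type VI chains build the beaded filaments around cells. Col6a1 was at 219.8 CPM in Control against 379.5 in pIVCL, a ratio of 1.73 (1.43 to 2.09), and Col6a2 at 92.7 CPM in Control against 177 in pIVCL, a ratio of 1.91 (1.42 to 2.54). Col6a3 was at 226 CPM in Control against 264 in pIVCL, a ratio of 1.17 (0.942 to 1.45) that includes 1. Col6a5 was seen in this class alone, with 6 and 21 UMIs and a ratio of 8.66 (3.38 to 26.2). The basement membrane chains were higher by less than the fibrillar chains Col1a1, Col1a2, Col3a1 and Col5a2. Their ratios were 1.23 (1.101 to 1.37) for Col4a1 and 1.32 (1.14 to 1.53) for Col4a2.

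Of the remaining chains in stellate-like cells, Col8a1, which builds the short networks of vessel walls, was at 13.9 CPM in Control against 108 in pIVCL, a ratio of 7.72 (4.398 to 14.2). Col15a1, a multiplexin that links basement membrane to fibrils, was at 8.2 CPM in Control against 54.8 in pIVCL, a ratio of 6.68 (3.13 to 15.5), and Col18a1 at 22.1 CPM in Control against 64.9 in pIVCL, a ratio of 2.93 (1.702 to 5.09), beside 24.1 and 36.7 CPM in B cell-like cells, which should lack it. Col13a1 was the chain lower by at least 1, at 24.6 CPM in Control against 2.03 in pIVCL from 30 and 1 UMIs. Of those, 28 and 1 lay in cells that also carried LSEC or Kupffer genes, and in the stellate core, with 2 and 0 UMIs, the log2 ratio was -0.17 in place of -1.02. Col24a1 had 19 and 3 UMIs, and Col27a1, with a ratio of 0.905 (0.466 to 1.67), did not differ beyond its counting error.

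These values depended on which cells the stellate-like cluster held. It contained a sub-cluster led by the fibroblast genes Gsn, Dpt and Eln and the smooth muscle gene Acta2, with 16 Control and 25 pIVCL cells, a stellate core of 151 Control and 35 pIVCL cells, and 18 Control and 24 pIVCL cells in which stellate genes were mixed with LSEC or Kupffer genes. This division was made after the values were seen. The sub-cluster held 4.26% of all collagen UMIs in Control and 23.7% in pIVCL, the core 29.3% and 5.97%, and the mixed cells 4.76% and 6.39%. The mixed cells held 447 of the 451 Control UMIs of the LSEC gene Dnase1l3 in the class and all 108 in pIVCL. Their total collagen was at 3645 CPM in Control against 4664 in pIVCL, a ratio of 1.28 (1.17 to 1.39). In the whole class, 8 of 10 measured portal fibroblast markers were higher by at least 1 with 0 lower, summing to 1916 CPM in Control and to 5423 in pIVCL. Of 14 stellate markers 7 were lower by as much, with summed levels of 43799 and 22614 CPM. Of 10 Kupffer markers 2 were higher by as much, with summed levels of 1588 and 2957 CPM. The part of these marker shifts in the class values was not tested beyond the values of the parts that follow.

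In the stellate core, total collagen was at 7817 CPM (7627 to 8010.1) in Control against 10159 (9548 to 10799.7) in pIVCL, a ratio of 1.3 (1.22 to 1.39). The core itself was made up differently in the libraries, with a median of 5151 UMIs per cell in Control and 1687 in pIVCL. It was drawn from 3 sub-clusters with 48, 70 and 41 Control and 31, 7 and 2 pIVCL cells, counted with their few cells outside the stellate-like class, and the total collagen ratios in these were 1.73 (1.55 to 1.93), 1.19 (1.07 to 1.32) and 1.02 (0.802 to 1.28). Col1a1 was at 66.6 CPM (50.2 to 86.7) in Control against 366 (257 to 504) in pIVCL in the core, from 55 and 37 UMIs, a ratio of 5.49 (3.52 to 8.48). Col5a2 was at 76.3 CPM in Control against 237 in pIVCL, a ratio of 3.11 (1.86 to 5.05). Col3a1 had a ratio of 1.81 (1.505 to 2.17) and Col1a2 of 1.37 (1.07 to 1.74). Col14a1, at 3712 CPM in Control against 4121 in pIVCL, had a ratio of 1.11 (1.00 to 1.23), and Col5a1, at 329 CPM in Control against 356 in pIVCL, of 1.08 (0.741 to 1.53). Among Col1a1, Col5a2, Col3a1 and Col1a2 the ratios in the core came in this order, as in the whole class, and each was smaller.

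In the fibroblast and smooth muscle sub-cluster, total collagen was at 8755 CPM (8203 to 9334) in Control against 26268 (25469 to 27086) in pIVCL, a ratio of 3.001 (2.79 to 3.22). Col1a1 was at 1149 CPM (955 to 1371) in Control against 4296 (3976 to 4634) in pIVCL, a ratio of 3.74 (3.08 to 4.57), and Col1a2 and Col3a1 had ratios of 3.77 (3.12 to 4.59) and 3.77 (3.29 to 4.33). Col5a2 was at 140.1 CPM in Control against 701 in pIVCL, a ratio of 5.001 (2.903 to 9.24), Col4a1 at 439 CPM in Control against 1338 in pIVCL, a ratio of 3.05 (2.21 to 4.27), and Col14a1 at 1074 CPM in Control against 2772 in pIVCL, a ratio of 2.58 (2.095 to 3.197). Col6a3 had a ratio of 0.895 (0.648 to 1.24) and did not differ beyond counting error. Col8a1 had 0 UMIs in Control and 47 in pIVCL, at least 10.8-fold higher against a floor of 3 UMIs, and 36.2% of those UMIs came from 1 cell. The UMIs of Col15a1 and Col6a5 in the stellate-like class all came from this sub-cluster.

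Among these few cells, 377 of the 668 Col1a1 UMIs in pIVCL came from the 15 cells with more portal fibroblast than smooth muscle marker UMIs, and 272 from the 9 cells with the reverse. Col1a1 was at 4285 and 4423 CPM in these pIVCL cells. In Control it was at 1356 CPM in 12 cells of the first kind, from 121 UMIs, and at 113 CPM in 4 cells of the second, from 2 UMIs. Total collagen was at 10218 CPM in Control against 25417 in pIVCL in the first kind, a ratio of 2.49 (2.302 to 2.69), and at 1406 CPM in Control against 28260 in pIVCL in the second, a ratio of 20.1 (13.6 to 31.1). In pIVCL, Col8a1 was at 79.6 CPM in the first and 650.4 in the second, and Col15a1 at 284 and 32.5.

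**Figure D3:**
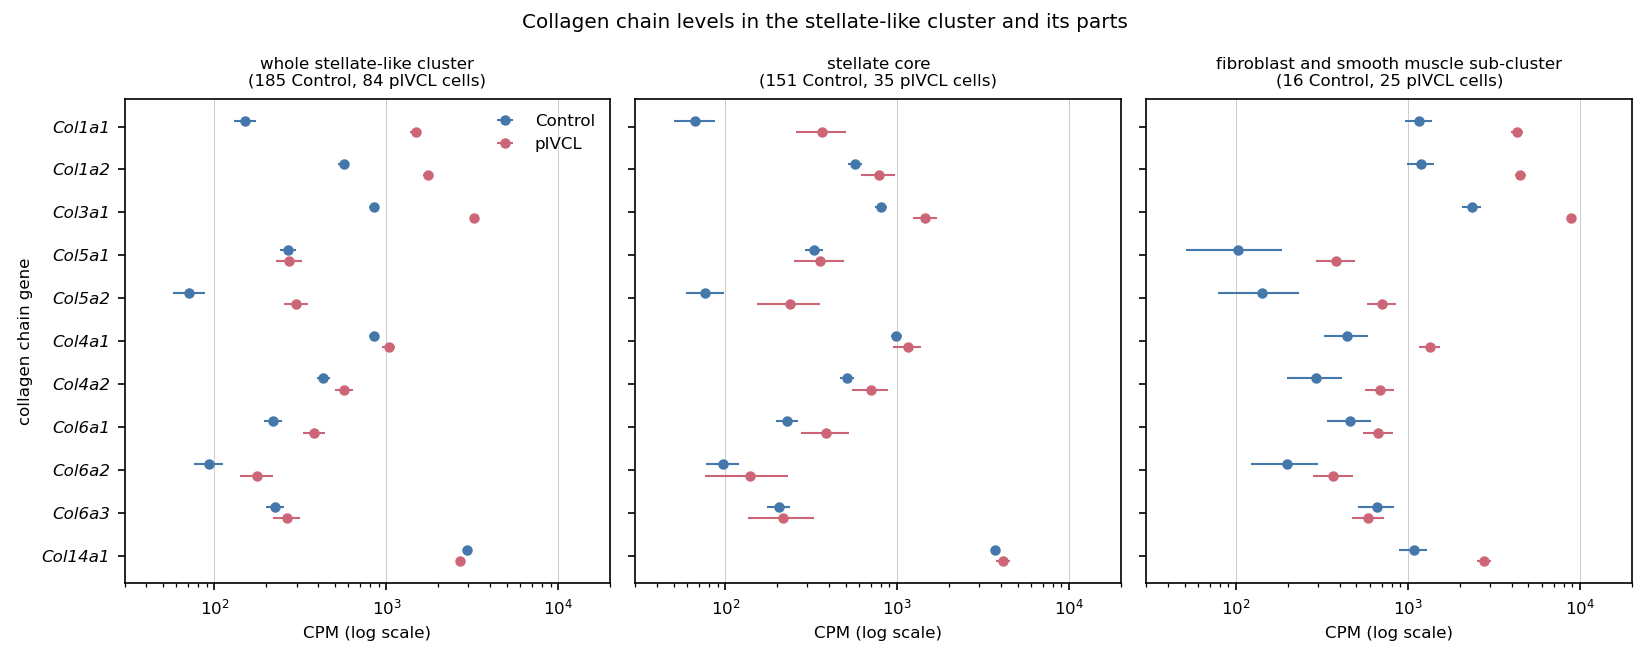
Level of 11 chains (CPM, log axis) in the stellate core and in the fibroblast and smooth muscle sub-cluster, for Control and pIVCL, with exact Poisson intervals. Col1a1 lay at 66.6 and 366 CPM in the core and at 1149 and 4296 CPM in the sub-cluster.

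The UMI ratio of Col1a1 to Col1a2, the partners of the type I trimer, was 0.117 in Control and 0.468 in pIVCL core cells, and 0.969 and 0.960 in the sub-cluster. For Col5a1 to Col5a2 it was 4.32 and 1.5 in the core and 0.733 and 0.541 in the sub-cluster. For Col4a1 to Col4a2 over the whole class it was 1.96 and 1.82. These are ratios of counts in 1 library each.

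The class could also be drawn cell by cell. Each cell then took the class for which it held the largest share of that class's marker UMIs over all kept cells. Classes whose markers had few UMIs thus weighed more per UMI. This rule left 157 Control and 42 pIVCL stellate-like cells. The total collagen ratio was then 0.983 in place of 1.82, with a median log2 ratio over chains of -0.07. Col1a1 stayed higher, at a log2 ratio of 1.49, and Col1a2 and Col3a1 were at -0.22 and -0.11.

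Genes that make and handle collagen were taken from lists, whose members named here are among the 3 with the largest log2 ratio in either direction. Of 19 measured genes for collagen folding and modification, 0 passed a log2 ratio of 1 in stellate-like cells and the median was 0.24. Serpinh1, the collagen chaperone, was at 523 CPM in Control against 1011 in pIVCL, a ratio of 1.93 (1.71 to 2.18). Plod2, a lysyl hydroxylase, had a ratio of 2.29 (1.44 to 3.66) and P4ha1, a prolyl hydroxylase, of 1.63 (1.25 to 2.13). Of 19 genes for procollagen processing and fibril assembly, 6 were higher by at least 1 and 0 lower, with a median of 0.37. Lox, which cross-links collagen, was at 4.1 CPM in Control against 101 in pIVCL, Ogn, a fibril-binding proteoglycan, at 47.6 CPM in Control against 268 in pIVCL, and Pcolce2, an enhancer of procollagen cleavage, at 16.4 CPM in Control against 118 in pIVCL.

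Of 7 genes for collagen breakdown and its inhibitors, 3 were higher and 1 lower by at least 1. The inhibitor Timp3 was at 302 CPM in Control against 830.1 in pIVCL and Timp1 at 10.7 CPM in Control against 56.8 in pIVCL, while Reck, a membrane inhibitor, was at 72.98 CPM in Control against 18.3 in pIVCL. Of 6 collagen receptors 0 passed, with a median of 0.54 and the largest ratios for Ddr1, Lair1 and Mrc2. Of 13 basement membrane partners 1 was higher, the laminin chain Lama4 at 26.2 CPM in Control against 85.2 in pIVCL, with a median of -0.01. Of 14 genes of stellate activation 8 were higher and 0 lower, with a median of 1.33, and of 12 genes of stellate quiescence 0 were higher and 7 lower, with a median of -1.10. Of the quiescence genes, Ngfr was at 194 CPM in Control against 36.5 in pIVCL and Hgf, hepatocyte growth factor, at 1021 CPM in Control against 258 in pIVCL. These counts are over the whole class, whose make-up differed between the libraries. Lrat was at 1674 CPM in Control against 923 in pIVCL in the class and at 2080 CPM in Control against 1700 in pIVCL in the core. Reln was at 2139 CPM in Control against 757 in pIVCL in the class and at 2674 CPM in Control against 1601 in pIVCL in the core. The part of the make-up in the quiescence and activation counts was not tested. All 17 genes of the dissociation stress list were above 0 in this class, with a median of 0.50 and 2 past 1, and their part in the collagen values was not tested.

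The chains of LSEC-like cells were mainly Col4a1, Col4a2 and Col13a1. Different clusters held them in the libraries: 738 of 747 Control cells lay in a cluster led by Dnase1l3 and Clec4g, and 420 of 427 pIVCL cells in a cluster led by Esm1, Lyve1 and Cxcl9. Of 10 chains measured, 0 were higher by at least 1 and 1 was lower, beside 2.25% and 1.21% of 10900 genes, and the median log2 ratio was -0.00 over chains and -0.01 over all genes. Chains under 20 CPM in both libraries, such as Col4a4, could not reach 1 with 20 CPM added, so the count does not speak for them.

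Col4a1 was at 609 CPM (588 to 629) in Control against 1065 (1017 to 1115) in pIVCL in LSEC-like cells, a ratio of 1.75 (1.65 to 1.85). Col4a2 was at 261 CPM (247 to 274) in Control against 404 (374 to 435) in pIVCL, a ratio of 1.55 (1.41 to 1.696). Both intervals lay above 1 and both log2 ratios, 0.79 and 0.59, below the limit of 1. The UMI ratio of Col4a1 to Col4a2 was 2.33 in Control and 2.64 in pIVCL.

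Col4a3 and Col4a4 were lower instead. Col4a3 and Col4a4, which with Col4a5 form the type IV trimer known from the kidney filter, start 71 bases apart on opposite strands of chromosome 1 (chr1:82586921-82722059 and chr1:82448423-82586849). In LSEC-like cells Col4a4 had 82 UMIs in Control and 0 in pIVCL, at least 8.61-fold lower against a floor of 3 UMIs. Col4a3 had 27 and 0, at least 2.84-fold lower. At 14.8 and 4.87 CPM in Control, both were low beside Col4a1, and with 20 CPM added the log2 ratio of Col4a4 was -0.80.

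Col13a1 was the chain lower by at least 1 in LSEC-like cells. It was at 335 CPM (319.6 to 350.2) in Control against 24.6 (17.8 to 33.2) in pIVCL, from 1855 and 43 UMIs, a ratio of 0.0736 (0.0531 to 0.0995) and a log2 ratio of -2.99. A Col13a1 UMI was seen in 81.4% of Control cells and 7.73% of pIVCL cells, or 27.2% and 1.89% with each cell thinned to 1000 UMIs. Kupffer-like cells, which should lack it, had a Col13a1 UMI in 1.86% and 0.129%, with median depths of 2265 and 968 UMIs against 7592 and 3706 in LSEC-like cells.

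A few cells lay in the cluster of the other library. The 7 pIVCL cells in the Dnase1l3-led cluster held Col13a1 at 295 CPM, from 7 UMIs of which 71.4% were in 1 cell. The 9 Control cells in the Esm1-led cluster held it at 66.4 CPM, from 3 UMIs. Col13a1 was also lower in the unnamed shallow cluster, at 205 CPM in Control against 5.75 in pIVCL. In vascular endothelial-like cells its log2 ratio was -2.11, and -0.88 with classes drawn cell by cell. In stellate-like cells it was -1.02, and -0.17 in the core.

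Col27a1, a fibrillar chain otherwise known from cartilage, was at 40.1 CPM in Control against 21.8 in pIVCL in LSEC-like cells, a ratio of 0.543 (0.375 to 0.769). Col5a2 was at 18.2 CPM in Control against 21.2 in pIVCL, a ratio of 1.16 (0.775 to 1.71). Col14a1 was at 4.69 CPM in Control against 13.7 in pIVCL, a ratio of 2.93 (1.61 to 5.31), from 26 and 24 UMIs, beside 2929 and 2695 CPM in stellate-like cells. Col17a1, the hemidesmosome collagen, had 19 and 3 UMIs.

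Sinusoidal endothelium differs along the lobule, and the LSEC-like cells were divided by whether they held more UMIs of a list of 9 pericentral or of 10 periportal genes, with no collagen among them. There were 303 Control and 260 pIVCL pericentral-leaning cells and 435 and 150 periportal-leaning cells, which is a range of a count and not a cell type. Within 1 UMI of the division lay 34 Control cells (4.55%) and 57 pIVCL cells (13.3%). Of the pericentral genes 1 was higher and 4 were lower by at least 1 in pIVCL, and of the periportal genes 0 and 1, so the lists that set the lean differed between the libraries too. Although 8 of the 9 pericentral genes were below 0, the list summed to 2970 CPM in Control against 4372 in pIVCL. The pIVCL lean thus rested more on 1 gene than the Control lean did. Fabp4, a gene of the pericentral list, was among the 10 leading genes of the Esm1-led cluster.

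Col4a1 was at 655 CPM in Control against 1239.7 in pIVCL in pericentral-leaning cells, a ratio of 1.89 (1.76 to 2.03), and at 578 CPM in Control against 674 in pIVCL in periportal-leaning cells, a ratio of 1.17 (1.04 to 1.31). The pericentral over periportal ratio of Col4a1 was 1.13 (1.06 to 1.22) in Control and 1.84 (1.64 to 2.08) in pIVCL. Col4a2 showed the same pattern, with 1.16 (1.04 to 1.29) in Control and 1.71 (1.42 to 2.08) in pIVCL. Col13a1 was at 322 CPM in Control against 9.32 in pIVCL in pericentral-leaning cells and at 344 CPM in Control against 62.8 in pIVCL in periportal-leaning cells, so its pericentral over periportal ratio was 0.935 (0.851 to 1.03) in Control and 0.148 (0.0675 to 0.302) in pIVCL. Col27a1 was at 37.7 CPM in Control against 16.9 in pIVCL and at 42.4 CPM in Control against 33.4 in pIVCL in the same order.

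**Figure D4:**
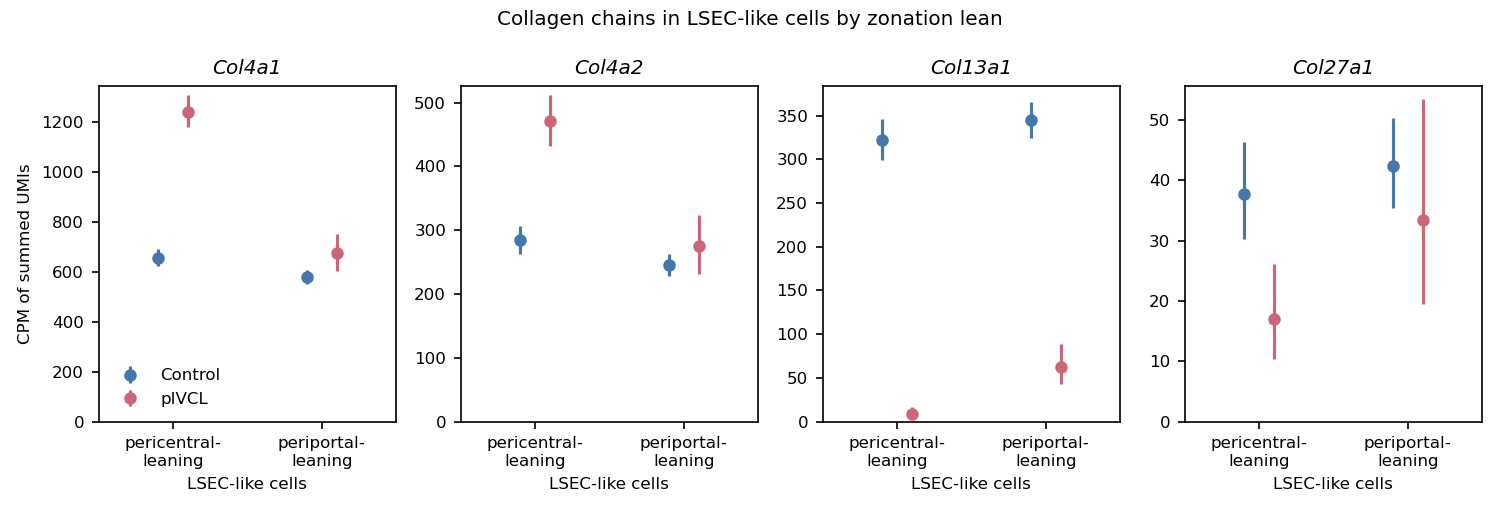
Level of the chains of LSEC-like cells (CPM, linear axis) in pericentral-leaning and periportal-leaning cells of Control and pIVCL, with exact Poisson intervals. Col4a1 was at 655 and 1240 CPM in pericentral-leaning cells and at 578 and 674 CPM in periportal-leaning cells, and Col13a1 at 322 and 9.32 against 344 and 62.8 CPM.

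Of 20 measured folding and modification genes in LSEC-like cells, 1 was higher by at least 1 and 0 lower, with a median of 0.17. It was Fkbp10, a chaperone of procollagen, at 0.180 CPM in Control against 26.3 in pIVCL. Serpinh1 was at 127 CPM in Control against 219 in pIVCL, a ratio of 1.73 (1.52 to 1.96), and P4ha1 at 62.4 CPM in Control against 109 in pIVCL, a ratio of 1.75 (1.46 to 2.097). Of 11 basement membrane partners 0 passed, with Lamc1, a laminin chain, at 33.7 CPM in Control against 79.6 in pIVCL and Tinagl1, a basement membrane glycoprotein, at 1003 CPM in Control against 594 in pIVCL. Of 5 receptors 1 was lower, Adgrg1, an adhesion receptor for type III collagen, at 124 CPM in Control against 18.9 in pIVCL. None of 9 processing genes or 5 breakdown genes passed.

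Marker lists of other cells also differed in LSEC-like cells. Of 9 measured Kupffer markers 8 were higher by at least 1 in pIVCL LSEC-like cells, with a summed level of 57.4 CPM in Control against 822 in pIVCL. The hepatocyte free RNA list was at 11133 and 15668 CPM with 3 of 15 genes higher by at least 1, and 11 of 17 dissociation stress genes were higher with 0 lower. Of 10 LSEC markers 1 was higher and 3 lower, with summed levels of 19562 and 12755 CPM. Kupffer-like cells held Col4a1 at 20.8 CPM in Control against 31.4 in pIVCL and hepatocyte-like cells at 5.13 CPM in Control against 4.03 in pIVCL, below the LSEC-like levels in both libraries. The part of these lists in the lower Col13a1 was not tested.

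Vascular endothelial-like cells were named for the larger vessels, but both clusters of the class had a higher marker score for LSEC than for vascular endothelium. The LSEC score was 1.454 against 0.8424 in the cluster with 120 Control and 25 pIVCL cells. It was 1.062 against 0.8799 in the cluster with 44 and 92. Among sub-clusters, the vascular score was the higher in those led by Adgrg6, Rspo3 and Ccl21a, and the LSEC score in the others. The class values are thus not those of larger vessels alone. Of 10 chains measured, 1 was higher by at least 1 and 2 were lower, beside 2.88% and 1.49% of 9379 genes, with a median log2 ratio of -0.07 over chains and -0.00 over all genes.

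Col4a2 was at 184 CPM (162 to 208) in Control against 427 (380.5 to 478) in pIVCL in vascular endothelial-like cells, a ratio of 2.33 (1.96 to 2.76), and was the chain past 1. Col4a1 was at 416 CPM (383 to 451) in Control against 802 (738 to 871) in pIVCL, a ratio of 1.93 (1.71 to 2.17). Col18a1 was at 15.97 CPM in Control against 40.9 in pIVCL, a ratio of 2.56 (1.42 to 4.68), and Col23a1, a membrane collagen, at 18.9 CPM in Control against 52.2 in pIVCL, a ratio of 2.76 (1.63 to 4.75). With classes drawn cell by cell (69 Control and 55 pIVCL cells), Col4a1 and Col4a2 had log2 ratios of 0.05 and 0.13 in place of 0.92 and 1.13. Col13a1 was then at -0.88 in place of -2.11, and at -1.27 with the finer clustering (resolution 2), so of the 3 chains past 1 in either direction Col8a1 alone stayed past it cell by cell, at -2.53.

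Col8a1 (chr16:57624258-57754737) was at 116 CPM (98.8 to 136) in Control against 9.87 (3.97 to 20.3) in pIVCL, from 160 and 7 UMIs, a ratio of 0.0850 (0.0336 to 0.179). Col13a1 was at 115 CPM (98.2 to 135) in Control against 11.3 (4.87 to 22.2) in pIVCL, a ratio of 0.0977 (0.0415 to 0.197). Col5a2 was at 105 CPM in Control against 76.1 in pIVCL, a ratio of 0.728 (0.523 to 1.002), Col27a1 at 31.2 CPM in Control against 16.9 in pIVCL and Col6a3 at 22.5 CPM in Control against 9.87 in pIVCL. Col8a1 was thus lower in pIVCL among vascular endothelial-like cells and higher among stellate-like cells.

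Vascular chains were tied to sub-clusters whose cell numbers differed between the libraries. A sub-cluster led by Adgrg6, Vwf and Gja5, the last a connexin of arteries, had 41 Control and 10 pIVCL cells and held 157 of the 160 Control UMIs of Col8a1. In it Col8a1 was at 419.8 CPM in Control against 119.9 in pIVCL, a ratio of 0.286 (0.103 to 0.636), with all 6 pIVCL UMIs in 1 cell. The ratio in the whole class, 0.0850, was below that in this sub-cluster. Col13a1 sat in a sub-cluster led by Efnb1, Ntn4 and Msr1 (47 Control and 4 pIVCL cells), at 319 CPM in Control against 142 in pIVCL from 2 UMIs. The Col13a1 ratio there of 0.444 (0.0531 to 1.64) includes 1. This sub-cluster was LSEC by its marker score. It held the LSEC genes Dnase1l3 at 3380 CPM in Control against 2199 in pIVCL and Clec4g at 2443 CPM in Control against 1561 in pIVCL. Col5a2, whose class ratio was 0.728 with an interval that reached 1, was at 155 CPM in Control against 379.8 in pIVCL in the Adgrg6-led sub-cluster, a ratio of 2.45 (1.38 to 4.17), and at 183 CPM in Control against 432 in pIVCL in a sub-cluster led by Ednrb and Efnb1 (37 Control and 10 pIVCL cells), a ratio of 2.36 (1.21 to 4.33). Both sub-cluster intervals lay above 1.

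Col23a1 was held by a sub-cluster led by Ccl21a and Mmrn1, genes of lymphatic endothelium, with 4 Control and 15 pIVCL cells. There it was at 542 CPM in Control against 435 in pIVCL, a ratio of 0.802 (0.418 to 1.603), so the higher class value stood beside more cells of the sub-cluster and no higher level in it. Col4a1 in the sub-cluster led by Rspo3 and Wnt9b, genes of central veins (28 Control and 19 pIVCL cells), was at 273 and 949 CPM, a ratio of 3.48 (2.54 to 4.799). A sub-cluster led by T cell genes held 5 Control and 49 pIVCL cells. In the class, 6 of 10 measured T cell markers were higher by at least 1, with summed levels of 311 and 911 CPM, and 6 of 6 NK cell markers, with 23.2 and 678 CPM.

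**Figure D5:**
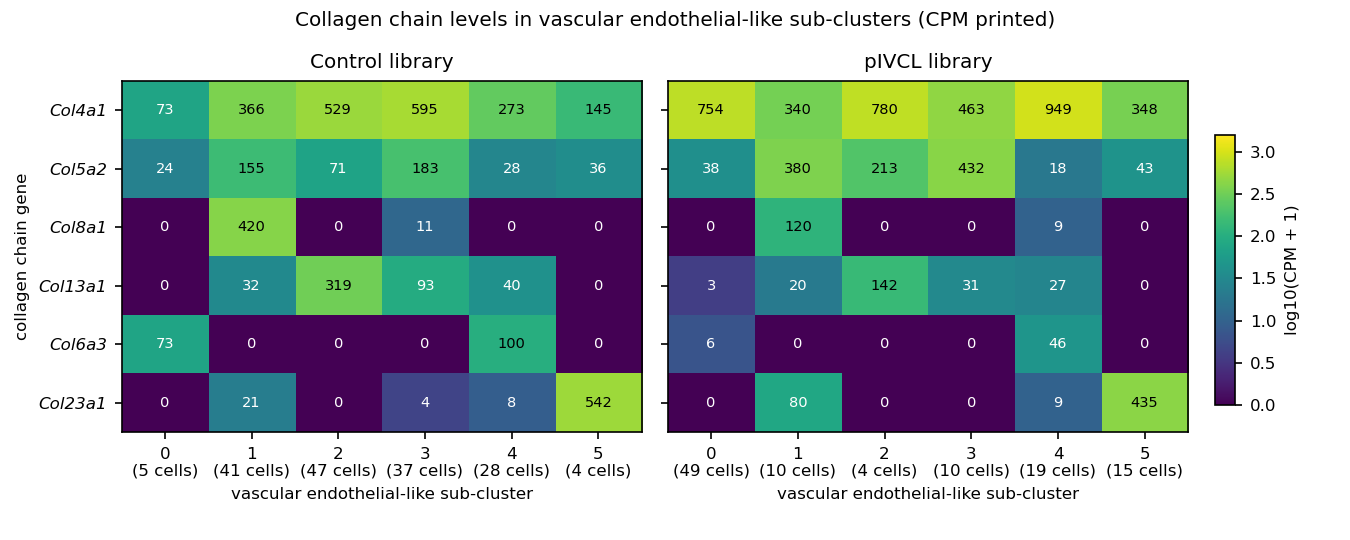
Level of 6 chains (rows) in 6 sub-clusters of vascular endothelial-like cells (columns, with their cell numbers) in Control and pIVCL, coloured by log10 of CPM plus 1 with the CPM printed. The T cell gene-led sub-cluster is 0, the Adgrg6-led 1, the Efnb1-led 2, the Rspo3-led 4 and the Ccl21a-led 5. Col8a1 was highest in 1 and Col23a1 in 5 in both libraries.

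Of 19 folding and modification genes measured in vascular endothelial-like cells, 1 was higher by at least 1, Fkbp10, at 10.2 CPM in Control against 63.5 in pIVCL. Of 9 processing genes 2 were higher, and the 3 with the largest log2 ratio were Dcn, Fn1 and Sparc. Of 10 basement membrane partners 1 was higher, the laminin chain Lamb1, at 2.18 CPM in Control against 26.8 in pIVCL. Of 4 collagen receptors 2 were lower: Adgrg6, a receptor for type IV collagen, at 415 CPM in Control against 103 in pIVCL, and Adgrg1 at 74.04 CPM in Control against 18.3 in pIVCL. Of 7 breakdown genes 0 passed, with Timp3 at 1678 CPM in Control against 835 in pIVCL. Adgrg6 was among the 10 leading genes of the sub-clusters with 41, 47 and 37 Control and 10, 4 and 10 pIVCL cells. Timp3 was among those of the sub-cluster with 47 Control and 4 pIVCL cells. The part of these cell numbers in the lower class levels was not tested.

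Hepatocyte-like cells held 1 abundant chain. Col18a1 was at 462 CPM (447 to 478) in Control against 315 (307 to 324) in pIVCL, a ratio of 0.682 (0.653 to 0.712), from 3338 and 5634 UMIs. A Col18a1 UMI was seen in 67.6% of hepatocyte-like Control cells and 50.7% of those from pIVCL, or 32.8% and 19.4% at 1000 UMIs per cell. T cell-like cells had one in 9.68% and 6.94%, or 1.43% and 2.65% when thinned, at median depths of 5062 and 2379.5 UMIs against 7025 and 2645 in hepatocyte-like cells. Of 10 chains measured in hepatocyte-like cells, 0 were higher or lower by at least 1, beside 0.399% and 0.434% of 11291 genes, and the median log2 ratio was 0.01 over chains and 0.00 over all genes. A chain under 20 CPM in both libraries cannot reach 1 with 20 CPM added, and every chain here but Col18a1 was that low. The count and the median therefore say nothing about those chains. A cluster led by Slc1a2 and Glul held 261 Control and 5 pIVCL hepatocyte-like cells, and clusters led by Cyp2f2 and by Cyp2a5 held 6 and 1 Control and 426 and 303 pIVCL cells.

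Elsewhere Col18a1 was at 24.1 CPM in Control against 36.7 in pIVCL in B cell-like cells and at 20.9 CPM in Control against 32.4 in pIVCL in T cell-like cells, classes that should lack it, and these levels are read as background. It was at 17.9 CPM in Control against 52.1 in pIVCL in Kupffer-like cells and at 11.9 CPM in Control against 16.03 in pIVCL in LSEC-like cells, and the pIVCL level was above that of B cell-like cells in the first and below it in the second. In Kupffer-like cells 9 of 10 hepatocyte markers were higher by at least 1, with summed levels of 5579 and 16645 CPM. Alb, the hepatocyte gene for albumin, was at 3392 CPM in Control against 9751 in pIVCL there and at 5394 CPM in Control against 8597 in pIVCL in B cell-like cells. The part of free hepatocyte RNA in the Kupffer-like value was not tested. Other chains in hepatocyte-like cells were at most 5.82 CPM, the pIVCL level of Col15a1 (Control 2.77), of which these cells still held 48.8% and 69.3% of all UMIs. Col12a1 had 13 and 56 UMIs there and Col5a3 13 and 66.

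Cholangiocyte-like and mesothelial-like cells, with under 50 cells in at least 1 library, are described by level only. Cholangiocyte-like cells (35 Control and 56 pIVCL cells) held Col27a1 at 78.8 CPM in Control against 74.9 in pIVCL, Col18a1 at 63.1 CPM in Control against 44.9 in pIVCL and Col4a5, on the X chromosome, at 51.2 CPM in Control against 29.96 in pIVCL. Mesothelial-like cells (43 Control and 20 pIVCL cells), which line the liver surface, held Col3a1 at 1488 CPM in Control against 325 in pIVCL, Col1a2 at 642 CPM in Control against 856 in pIVCL, Col1a1 at 515 CPM in Control against 193 in pIVCL and Col14a1 at 494 CPM in Control against 422 in pIVCL. Col4a4 was at 134 CPM in Control against 24.1 in pIVCL in them. Total collagen was second only to stellate-like cells there, at 4302 CPM (3968 to 4658) in Control against 3002 (2640.5 to 3399) in pIVCL. The mesothelial-like class also held other cells. Its mesothelial sub-cluster (34 Control and 13 pIVCL cells) held 1 of the 97 Control UMIs of the Kupffer gene Clec4f and all 16 in pIVCL. Total collagen in that sub-cluster was at 6007 CPM (5524 to 6522) in Control against 3313 (2872 to 3803) in pIVCL.

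The remaining quantified chains were scattered. Col11a2 had 12 and 9 UMIs in Kupffer-like cells of 14 and 22 over all kept cells. Col20a1 had 6 and 13 UMIs, Col25a1 21 and 7, and Col17a1 26 and 7 over all kept cells.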

How the data were processed

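Single-cell RNA of mixed liver cells was counted in 1 Control and 1 pIVCL library. The authors deposited UMI counts per gene and barcode, made with Cell Ranger 3.0.2 on mm10 per the submitters' processing notes. The counts were not normalized, and their annotation release is not stated. Of 31053 gene identifiers, 30934 (99.6%) matched GENCODE M21 (GRCm38), the source of gene coordinates. Promoters came from RefSeq.

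Barcodes with at least 500 UMIs, 200 genes and at most 25% mitochondrial UMIs were kept, which removed 848 Control barcodes (23.7%) and 1590 pIVCL barcodes (22.6%) over the mitochondrial limit. Doublet calling (Scrublet, scanpy 1.11.5, 6% expected) marked 5 Control and 3 pIVCL barcodes, so it did not work and doublets remain. Cells were clustered without collagen genes (2000 variable genes, 30 components, 20 neighbours, leidenalg 0.10.2 at resolution 1), and clusters within the stellate-like, mesothelial-like and vascular classes were divided once more. Python 3.11.15, numpy 2.4.6, scipy 1.17.1, pandas 2.3.3, scikit-learn 1.9.0 and matplotlib 3.10.9 were used.

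UMIs were summed per class and scaled to CPM, with exact Poisson intervals for levels, exact (Clopper-Pearson) binomial intervals for shares and conditional exact binomial intervals for ratios, all at 95%. A count of 0 was set to a floor of 3 UMIs for a ratio. Log2 ratios had 20 CPM added, which understates those of low genes and keeps genes under 20 CPM in both libraries from reaching 1. Comparisons of whole classes needed 50 cells in each library and 20 UMIs per gene, and a gene counts as higher or lower by at least 1 on the log2 scale. Ratios in parts of classes, such as the stellate core and the sub-clusters, were given without that minimum of cells. Every quantified chain is described, and at most 3 genes of each list are named, those with the largest log2 ratio. The members, lists and measures were chosen with earlier results of these data known. Only the step from summed UMIs to log2 ratios and calls was run on simulated data. Clustering, class naming and intervals were not.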

Additional observations from a re-analysis of the deposited data

Results flagged for a closer look

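Some chains had ratios (pIVCL over Control) on opposite sides of 1 in different cell classes, each with an interval that excluded 1. These differences between classes were not tested. Col8a1 had a ratio of 7.72 in stellate-like cells and 0.085 in vascular endothelial-like cells. Col18a1 had ratios of 2.91 in Kupffer-like, 2.93 in stellate-like and 2.56 in vascular endothelial-like cells, and 0.682 in hepatocyte-like cells. In Kupffer-like cells 13 of 15 genes of the hepatocyte free RNA list were higher by at least 1, with Alb at 3392 CPM in Control against 9751 in pIVCL, and the vascular levels of Col18a1, 15.97 and 40.9 CPM, lay close to the 24.1 and 36.7 CPM read as background in B cell-like cells. Col4a1 had ratios of 1.75 in LSEC-like, 1.23 in stellate-like and 1.93 in vascular endothelial-like cells, and 0.263 in monocyte/macrophage-like cells, where it had 20 and 16 UMIs. In that class 10 of 10 LSEC markers were lower by at least 1, with summed levels of 1357 and 179 CPM. Col4a2 had ratios of 1.55, 1.32 and 2.33 in the same first 3 classes and 0.545 in hepatocyte-like cells, from 23 and 31 UMIs. There 9 of 10 LSEC markers were below 0, with summed levels of 125 and 30.3 CPM. The part of these marker lists in the ratios was not tested. Col14a1 had a ratio of 2.93 in LSEC-like and 0.92 in stellate-like cells. Its LSEC-like levels were far below its stellate-like levels in both libraries. Its ratio in the stellate core lay above 1, so the opposite directions did not hold there.

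Barcodes removed by the filters, 853 in Control and 1599 in pIVCL, also held Col18a1, at 380 CPM in Control and 289 CPM in pIVCL. That was 33.9% and 33.8% of its UMIs, beside 19.6% and 27.6% of the UMIs of all genes.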

How the results depend on the processing

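No paired analysis was possible because each group held 1 library. All settings changed levels or cells of the same libraries, so none is a replicate check. With the class of each cell taken from its own marker UMIs, the total collagen ratio in stellate-like cells was 0.983 and the median log2 ratio of its chains -0.0673, and the log2 ratios of Col1a2, Col3a1, Col4a1, Col8a1 and Col15a1 there were -0.22, -0.11, -0.151, -0.0465 and -0.0685. Stellate-like cells then held 32.1% and 7.65% of collagen UMIs (Control and pIVCL) and LSEC-like cells 27.6% and 8.56%. In the stellate core alone, a setting chosen after seeing the data, the shares were 29.3% and 5.97%, the ratio 1.30 and the log2 ratio of Col14a1 0.15. At 1000 UMIs and 10% mitochondrial UMIs, the ratio over all cells was 0.705, stellate-like shares were 45.0% and 53.9% and LSEC-like shares 40.1% and 24.9%. The ratio over all cells was 0.450 from the mean CPM per cell and 0.355 over cells with few markers of other classes, which left 9 Control and 0 pIVCL LSEC-like cells, so class values were not run. LSEC-like cells held 18.3% in pIVCL with collagen genes kept in the clustering, 36.0% in Control at resolution 2, and 34.4% and 17.1% with the unnamed cluster added, a setting chosen after seeing the data. The median log2 ratio of chains in vascular endothelial-like cells was -0.07 and, without the T cell-led sub-cluster (chosen after seeing the data), 0.33, and over all settings it lay between -0.56 and 0.33. The cause of these shifts was not tested. The sizes of these shifts were not all measured against counting error, so no count of stable values is given. In stellate-like cells 6 chains with a ratio interval that excluded 1 changed sign. They were Col1a2, Col3a1, Col4a1, Col8a1 and Col15a1 cell by cell, and Col14a1 in the core. Col5a1 and Col6a3, whose intervals included 1, fell to -0.28 and -0.63 cell by cell. Scaled without technical and hepatocyte genes, the ratio over all cells was 0.614, outside its counting interval of 0.551 to 0.573. Depth limits chains under 20 UMIs and those in classes of under 50 cells.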
